A study of Mus musculus with 27 samples.

Results

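The 9 genes described here, Mat1a, Gnmt, Pemt, Ahcy, Bhmt, Shmt1, Cbs, Cth and Cdo1, encode enzymes of methionine, sulfur amino acid and one-carbon metabolism that hepatocytes express at a high level. They were chosen by name and matched to the gene symbols of the deposited expression table, in which each of the 9 had 1 row among 21823 genes. All 9 passed the filter on low values that left 12952 genes for testing, at least 3 libraries with an FPKM, a level scaled to transcript length and library depth, of 1 or more. RNA had been sequenced from zones 1, 2 and 3 of the liver lobule, collected from frozen sections by laser microdissection, in adult female wild-type C57BL/6 mice. There were 3 stages, non-pregnant (NP), dpc8 and dpc16, where dpc counts the days post coitum, and all libraries were of the same genotype with no treatment named. The 9 groups of stage and zone had 3 libraries each, 27 in all. Zone 1 lies around the portal vein, zone 3 around the central vein and zone 2 between them. The labels did not say whether libraries of different zones came from the same animal, or what the replicate number stood for, so the p-values measure the spread between these libraries, and those that combine zones may be too small where libraries share an animal.

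The liver makes most of the body's S-adenosylmethionine, the methyl donor for methylation reactions. Mat1a encodes the hepatocyte subunit of methionine adenosyltransferase, which makes it from methionine and ATP. Gnmt passes the methyl group to glycine and Pemt to phosphatidylethanolamine, and Ahcy splits the S-adenosylhomocysteine that remains into homocysteine and adenosine. Bhmt returns homocysteine to methionine with a methyl group from betaine. Cbs and Cth instead carry homocysteine through cystathionine to cysteine, and Cdo1 oxidises cysteine to cysteine sulfinate on the way to taurine and sulfate. Shmt1 moves a one-carbon unit between serine and folate in the cytosol. Many liver functions differ between the periportal and pericentral ends of the lobule, and the study followed the zones through pregnancy.

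The positions given here are those of GENCODE vM21 on the mm10 (GRCm38) build that the authors aligned to, and that of Cdo1 (ENSMUSG00000033022.8) is not reported. Mat1a (ENSMUSG00000037798.7) lies on chromosome 14 from 41105035 to 41124412, on the plus strand, and the other 8 genes lie on the minus strand. Gnmt (ENSMUSG00000002769.9) lies on chromosome 17 from 46725664 to 46729168, and Cbs (ENSMUSG00000024039.15) on the same chromosome from 31608894 to 31637238. Pemt (ENSMUSG00000000301.16) and Shmt1 (ENSMUSG00000020534.14) lie near each other on chromosome 11, from 59970614 to 60046489 and from 60788104 to 60811718. Bhmt (ENSMUSG00000074768.6) lies on chromosome 13 from 93616675 to 93637961, Cth (ENSMUSG00000028179.12) on chromosome 3 from 157894248 to 157925077, and Ahcy (ENSMUSG00000027597.15) on chromosome 2 from 155059310 to 155074497. Some of these loci share sequence or position with other genes. Of all 86-base stretches of the Ahcy transcripts, 71.5% also occurred in transcripts of other genes, chiefly Gm4737 and Gm9826, and 47.0% of those of Bhmt occurred elsewhere, chiefly in Gm5096 and Bhmt-ps1. Reads were single-end and 86 bases long and only uniquely mapped reads were kept, so the levels of Ahcy and Bhmt are uncertain. For Shmt1 the share was 3.37%, with Smcr8, and for the other 6 genes it was 0. Gnmt, Bhmt, Cth, Ahcy and Shmt1 overlap another annotated gene, and whether the counting used strand is not given in the sources used here, so reads of overlapping genes cannot be told apart.

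RefSeq promoter entries were at hand for Gnmt, Bhmt, Cbs, Ahcy, Pemt and Shmt1. The Gnmt promoter is shown because Gnmt was the methyltransferase of the list with a lower level at dpc16, and because its RefSeq and GENCODE starts lie within a few bases of each other. The stretch comprises the 247 bases before both starts, chr17:46729169-46729415 on the minus strand of GRCm38.p6, with the matches to 2 of the 7 motifs searched in capitals.
Gnmt promoter: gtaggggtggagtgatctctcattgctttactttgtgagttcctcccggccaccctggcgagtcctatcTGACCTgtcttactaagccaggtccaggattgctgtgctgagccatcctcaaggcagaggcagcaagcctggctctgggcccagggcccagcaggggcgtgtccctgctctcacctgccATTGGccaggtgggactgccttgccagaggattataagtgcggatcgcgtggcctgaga
The capitals mark AGGTCA on the other strand, a half-site of the repeat that HNF4 and other nuclear receptors bind, and CCAAT on the other strand, the CCAAT box. Both strands were searched. AGGTCA was present in the 250 bases before the start in 14.0% and CCAAT in 33.8% of the 32851 RefSeq promoters in the table. No match in this window was found for the other 5 motifs, which were the TATA box TATAAA (held by 12.4% of the promoters), the TCF site CTTTGAT (3.21%), the C/EBP site TTNCNNAA (36.8%), the amino acid response element TGATGNAA (3.45%) and the GC box GGGCGG (32.7%). These matches describe letters and not bound sites.

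The depth of each library was estimated from the steps between low FPKM values, at 7.36 to 32.54 M mapped reads with a median of 16.06 M. At these depths 1 read on a transcript of 1 kilobase is worth 0.0307 to 0.136 FPKM, and the lowest value of any of the 9 genes was 23.7 FPKM. All 8 periportal markers were higher and all 8 pericentral markers were lower in zone 1 than in zone 3 at each stage. The summed FPKM of 5 hepatocyte markers was 31350 to 95450 in NP and dpc8 libraries and 45680 to 220900 at dpc16, and its part in the stage differences was not tested. In 6 libraries, however, the summed FPKM of 4 Y-linked genes was 7.92 to 23.2, against at most 2.97 in the other 21 libraries, although the mice were labelled female. In the same 6 libraries the summed FPKM of 8 connective tissue and smooth muscle markers was 851 to 4567, against 21.2 to 521 in the others. In NP these were replicate 1 of zone 1 and replicate 2 of zone 3, at dpc8 replicate 1 of zone 1 and replicate 2 of zone 2, and at dpc16 replicate 3 of zones 2 and 3. The 9 genes had low values in them. In 51 of 54 combinations of a gene and a group that contains such a library, that library had the lowest value of its group, and 7 of the 9 genes had their lowest value of all 27 libraries in dpc16 zone 2 replicate 3. In bulk libraries fewer hepatocytes and less RNA per hepatocyte cannot be told apart. Results on which calls turned are therefore given for all 27 libraries and for the 21 libraries without these 6. Below, libraries with Y-linked FPKM are those with a sum over 5, and those without it have a lower sum, which was 0 in 11 of the 21.

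**Figure D1:**
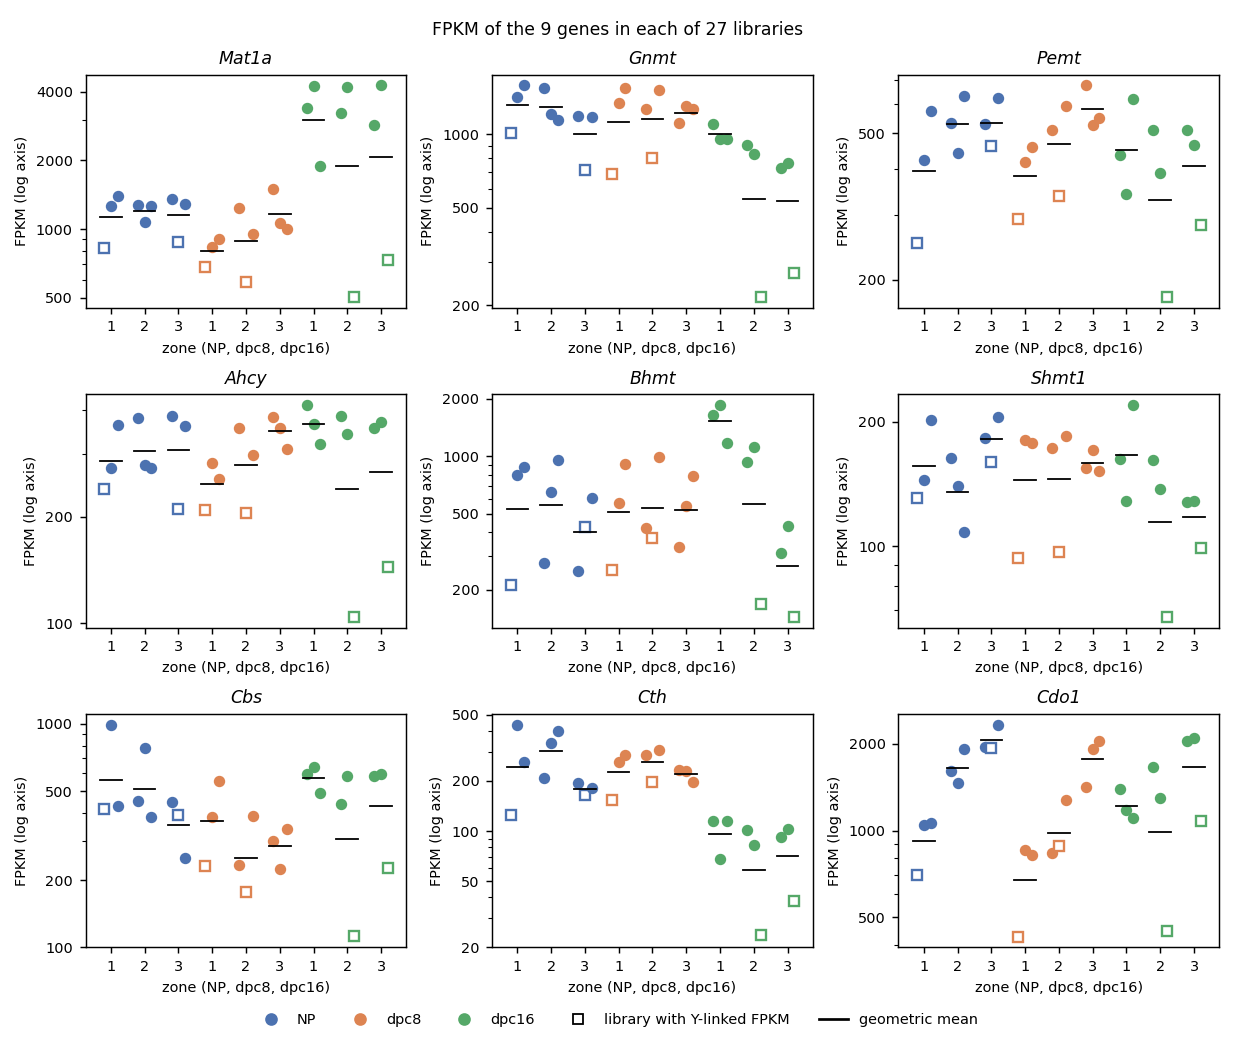
FPKM of each of the 9 genes (log axes) in all 27 libraries, by stage (color) and zone (horizontal axis), with the geometric mean of each group as a line. Open squares are the 6 libraries with Y-linked FPKM, most of which lie at the bottom of their group. Mat1a stood above its NP and dpc8 levels in the 7 other libraries at dpc16, Cth stood below them, and Cdo1 was higher in zone 3 than in zone 1.

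The 9 genes together made up 0.348% to 1.11% of the summed FPKM of a library. On this scale, which is per transcript length, Mat1a, Gnmt and Cdo1 were the highest, with medians over the 27 libraries of 1259, 1117 and 1294 FPKM. Bhmt, Pemt and Cbs followed with medians of 571, 465 and 416 FPKM, and Ahcy, Cth and Shmt1 with 321, 195 and 154 FPKM. The range over libraries was narrowest for Shmt1, with 3.27-fold between the lowest and the highest library, and widest for Cth, with 18.4-fold.

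A few of these genes passed the threshold in limma at dpc16, averaged over zones, as did 11.8% of all genes against NP and 11.1% against dpc8. At dpc16 the mean over the zones of Cth, the enzyme that releases cysteine from cystathionine, differed from that in NP by -1.67 on the log2(FPKM + 1) scale. That of Gnmt differed by -0.85, a call near the threshold that was lost in 11 of 27 fits without 1 library. Mat1a moved the other way, with a log2 difference of 0.97 from NP that missed the threshold and of 1.28 from dpc8 that passed it. Between NP and dpc8 none of the 9 genes passed. Across the lobule, Cdo1 was lower in zone 1 than in zone 3, with a log2 difference of -1.01 averaged over the stages. Bhmt was higher in zone 1 at dpc16, where the result depended on whether the replicate number was used to pair the zones.

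Mat1a was expressed at similar levels in NP and dpc8 libraries. Its FPKM in NP was 824, 1266 and 1399 in zone 1, 1278, 1076 and 1259 in zone 2, and 1351, 878 and 1289 in zone 3. At dpc8 the values were 685, 835 and 907 in zone 1, 1242, 584 and 954 in zone 2, and 1495, 1068 and 1000 in zone 3. At dpc16 they were 3385, 4227 and 1898 in zone 1, 3231, 4179 and 503 in zone 2, and 2868, 4272 and 729 in zone 3. The 7 dpc16 libraries without Y-linked FPKM were all above every NP and dpc8 library, whereas the 2 with it were below all NP libraries. The difference from NP averaged over zones was 0.97 ± 0.35 (SE; 95% interval 0.24 to 1.70), which missed the threshold in limma (adjusted p = 0.0794), and that from dpc8 was 1.28 ± 0.35 (limma, adjusted p = 0.0205). Leaving out replicate 2 of dpc16 zone 2 or of dpc16 zone 3, the highest libraries of those groups, lowered the latter to 1.09 and 1.102, which no longer passed, and leaving out replicate 3 of either group, which held Y-linked FPKM, raised the difference from NP to 1.29 and 1.22, which passed. The averaged differences in the 21 libraries were 1.40 ± 0.16 from NP and 1.71 ± 0.16 from dpc8 (limma, adjusted p = 1.68e-05 and 1.97e-06), and Mat1a was called in each zone in both comparisons. The summed FPKM of a library was also higher in the 7 dpc16 libraries without Y-linked FPKM, at 834568 to 988500, than in NP and dpc8, at 499866 to 704327, or in the other 2 dpc16 libraries, at 523854 and 573644, and quantile normalization of the libraries lowered the averaged difference from NP to 0.49 (limma, adjusted p = 0.214). Between zones 1 and 3 the Mat1a difference was -0.02 in NP, -0.54 at dpc8, where the zone 1 values all lay below those of zone 3, and 0.53 at dpc16, and none passed. Averaged over stages it was -0.01 (95% interval -0.74 to 0.72).

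Gnmt, the glycine methyltransferase that draws off excess S-adenosylmethionine, was lower at dpc16. Its FPKM in NP was 1014, 1423 and 1592 in zone 1, 1555, 1213 and 1151 in zone 2, and 1191, 716 and 1179 in zone 3. At dpc8 it was 687, 1344 and 1551 in zone 1, 1265, 803 and 1527 in zone 2, and 1117, 1310 and 1266 in zone 3. At dpc16 it was 1104, 954 and 956 in zone 1, 909, 833 and 216 in zone 2, and 730, 765 and 272 in zone 3. Among the libraries without Y-linked FPKM, the dpc16 values were below all NP and dpc8 values of the same zone. The averaged difference was -0.85 ± 0.26 from NP and -0.82 ± 0.26 from dpc8 (limma, adjusted p = 0.0387 and 0.0490). Both calls were near the threshold. The first was lost in 11 and the second in 21 of the 27 fits that each left out 1 library, with values from -0.97 to -0.63 and from -0.94 to -0.59. The second was also not called once the replicate number, taken across the stages, was a block (limma, adjusted p = 0.0588). With the replicate number as a random term neither was called. In the 21 libraries the differences and their errors were both smaller, at -0.61 ± 0.09 and -0.64 ± 0.09 (limma, adjusted p = 0.000175 and 0.0001). Between zones 1 and 3, Gnmt did not pass with all libraries (0.39 ± 0.26, averaged over stages; limma, adjusted p = 0.546) and passed in the 21 libraries, higher in zone 1 by 0.33 ± 0.09 (limma, adjusted p = 0.0271).

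Pemt and Ahcy changed less, and no difference of Pemt, Ahcy or Shmt1 between zones 1 and 3 or between dpc16 and the other stages passed, with all libraries or with the 21. Pemt, which makes phosphatidylcholine from phosphatidylethanolamine, ranged from 252 to 631 FPKM in NP, from 293 to 676 at dpc8 and from 179 to 620 at dpc16. Its averaged difference between dpc16 and NP was -0.29 (95% interval -0.73 to 0.14) and between zones 1 and 3 also -0.29 (95% interval -0.73 to 0.14), so a change of more than 0.73 in either was outside the intervals. Ahcy ranged from 210 to 383 FPKM in NP, from 204 to 382 at dpc8 and from 104 to 413 at dpc16. Its averaged difference from NP at dpc16 was -0.07 (95% interval -0.55 to 0.41). At dpc8 the 3 zone 1 values of Pemt, and likewise of Ahcy, all lay below the zone 3 values. The log2 differences were -0.60 for Pemt and -0.49 for Ahcy, and neither passed (limma, adjusted p = 0.52 and 0.635).

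Bhmt, the betaine-dependent enzyme that remethylates homocysteine, differed most between zones at dpc16. Its FPKM there was 1644, 1859 and 1170 in zone 1, 934, 1116 and 168 in zone 2, and 311, 429 and 144 in zone 3. The zone 1 values all exceeded those of zones 2 and 3. In NP they were 212, 800 and 875 in zone 1, 276, 653 and 958 in zone 2, and 251, 426 and 603 in zone 3. At dpc8 they were 256, 571 and 917 in zone 1, 423, 373 and 987 in zone 2, and 335, 551 and 790 in zone 3. At both of these stages the zones overlapped throughout. The zone 1 minus zone 3 difference at dpc16 was 2.51 ± 0.69 (95% interval 1.08 to 3.94; limma, adjusted p = 0.0794). Same-numbered dpc16 libraries deviated together, but so did replicates 1 and 2 of zones 2 and 3, so pairing the zones by number is uncertain. The zone 1 minus zone 3 difference passed once the replicate number was a block (2.51 ± 0.34; limma, adjusted p = 0.000223), as it did in the 21 libraries (2.06 ± 0.50; limma, adjusted p = 0.0324). The difference between dpc16 and NP in this zonal difference was 2.11 (95% interval 0.09 to 4.13) and did not pass over all genes (limma, adjusted p = 0.993 without and 0.188 with the block). Averaged over stages, Bhmt was 0.96 higher in zone 1 (limma, adjusted p = 0.218). It passed with the number as a block at all stages (limma, adjusted p = 0.00452), not with the number as a random term (limma, adjusted p = 0.0735), and at 1.21 in the 21 libraries (limma, adjusted p = 0.0156). Because much of the Bhmt sequence is shared, Gm5096 was examined too, and its FPKM was 0.711 to 9.86, far below that of Bhmt. Only uniquely mapped reads were kept, so this cannot show how many reads of the shared stretches either gene lost.

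Shmt1 had the smallest range of the 9 genes. It ranged from 108 to 205 FPKM in NP, from 93.8 to 185 at dpc8 and from 67.3 to 220 at dpc16. In zone 3 the dpc16 values, 128, 129 and 99.1, were all below the NP values, 183, 160 and 205. The difference of -0.62 ± 0.32 did not pass (limma, adjusted p = 0.489), and the average over zones was -0.26 (95% interval -0.64 to 0.13).

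The transsulfuration enzymes differed from each other. Cth had FPKM values in NP of 124, 436 and 259 in zone 1, 209, 337 and 400 in zone 2, and 195, 166 and 181 in zone 3. At dpc8 it had 154, 259 and 285 in zone 1, 288, 198 and 309 in zone 2, and 232, 229 and 197 in zone 3. At dpc16 it had 115, 68.1 and 115 in zone 1, 101, 82.6 and 23.7 in zone 2, and 92.4, 103 and 38.2 in zone 3. All 9 dpc16 values were below all 18 values of NP and dpc8. The averaged difference was -1.67 ± 0.27 from NP and -1.65 ± 0.27 from dpc8 (limma, adjusted p = 0.000261 and 0.000309), and both kept their call in each of the 27 fits without 1 library. In the 21 libraries the differences were -1.49 ± 0.16 and -1.45 ± 0.16 (limma, adjusted p = 9.3e-06 and 1.28e-05), and with the replicate number as a random term the call held at an adjusted p of 0.00214 and 0.0026 in limma. By zone, the difference from NP was -1.31 in zone 1, -2.36 in zone 2 and -1.32 in zone 3, of which zone 2 passed (limma, adjusted p = 0.239, 0.00637 and 0.218). The zone 2 call was lost when only the groups compared were fitted (limma, adjusted p = 0.251), and so was that against dpc8 (-2.13; limma, adjusted p = 0.0222 and then 0.43), which was also lost without dpc8 zone 2 replicate 1 or 3 or dpc16 zone 2 replicate 3, at -2.06, -2.01 and -1.50. The tests of whether the zones differed in this change did not pass (limma, adjusted p = 0.782 for zone 1 minus zone 2). Zones 1 and 2 passed in the 21 libraries, at -1.79 and -1.73, and zone 3 did not, at -0.94 (limma, adjusted p = 0.105).

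Cbs, which joins homocysteine to serine, did not follow Cth. Its FPKM in NP was 416, 992 and 429 in zone 1, 452, 779 and 385 in zone 2, and 447, 393 and 250 in zone 3. At dpc8 it was 232, 382 and 553 in zone 1, 233, 177 and 386 in zone 2, and 298, 224 and 340 in zone 3, and at dpc16 it was 598, 644 and 490 in zone 1, 436, 583 and 113 in zone 2, and 582, 595 and 226 in zone 3. The values of the stages overlapped in every zone. The averaged difference from NP was -0.14 at dpc16 (95% interval -0.76 to 0.47) and -0.65 at dpc8 (95% interval -1.27 to -0.03; limma, adjusted p = 0.779). From dpc8 to dpc16 it was 0.51 with all libraries (limma, adjusted p = 0.327) and 0.71 ± 0.22 in the 21 libraries, where it passed (limma, adjusted p = 0.0330).

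Cdo1 was the gene of the 9 with a difference between zones 1 and 3 that passed in all 27 libraries. Its FPKM in NP was 700, 1043 and 1061 in zone 1, 1615, 1459 and 1929 in zone 2, and 1959, 1940 and 2333 in zone 3. At dpc8 it was 428, 859 and 821 in zone 1, 839, 881 and 1276 in zone 2, and 1423, 1927 and 2044 in zone 3, and at dpc16 it was 1397, 1178 and 1106 in zone 1, 1661, 1294 and 447 in zone 2, and 2056, 2098 and 1079 in zone 3. Zones 1 and 3 did not overlap in NP or at dpc8. At dpc16 replicate 3 of zone 3 fell below the zone 1 values, and the other zone 3 libraries were above all of them. The difference averaged over stages was -1.01 ± 0.22 (95% interval -1.47 to -0.55; limma, adjusted p = 0.00577), it kept its call in each of the 27 fits without 1 library, and it was -0.96 ± 0.12 in the 21 libraries (limma, adjusted p = 3.72e-05). By stage it was -1.17 in NP, -1.40 at dpc8 and -0.45 at dpc16, none of which passed with all libraries (limma, adjusted p = 0.23, 0.0702 and 0.939), and in the 21 libraries it was -1.02, -1.08 and -0.77, of which the NP and dpc8 differences passed (limma, adjusted p = 0.0185, 0.00479 and 0.0505). Averaged over zones, Cdo1 did not pass between any stages with all libraries, and between dpc8 and dpc16 it was at 0.26 (limma, adjusted p = 0.541), at 0.42 and past the threshold in the 21 libraries (limma, adjusted p = 0.0195) and at -0.0078 after quantile normalization. The change with stage in the zonal difference was not resolved (0.72 for dpc16 against NP, 95% interval -0.41 to 1.85).

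Counted over the 9 genes, no test of zone 1 against zone 3 at a single stage passed in limma, against 1.34% of all genes tested in NP, 1.61% at dpc8 and 1.55% at dpc16, and 3 of the 27 tests had an unadjusted p under 0.05 (Cdo1 in NP and at dpc8, Bhmt at dpc16), against 8.02%, 12.2% and 7.86% of all genes. In the 21 libraries the same 3 tests passed, against 1.81%, 2.76% and 2.71%. Averaged over stages, 1 of 9 passed, against 5.59% of all genes, and 3 of 9 passed in the 21 libraries, against 8.18%. With the replicate block, 3 tests at a single stage passed, Bhmt at dpc16 and Cdo1 in NP and at dpc8, against 2.18%, 3.54% and 2.65% of all genes in NP, at dpc8 and at dpc16, and 2 of the averaged tests, Cdo1 and Bhmt, against 8.10%. In NP and at dpc8 same-numbered libraries did not all deviate together. None of the 54 tests between neighbouring zones passed in limma, against 0.154% and 0.401% of all genes in NP for zones 1 and 2 and for zones 2 and 3, 0.124% and 0.347% at dpc8, and 0.139% and 0.517% at dpc16. At an unadjusted p under 0.05 there were 3, Cdo1 between zones 1 and 2 in NP and between zones 2 and 3 at dpc8 and Bhmt between zones 1 and 2 at dpc16, against 3.40% to 7.02% of all genes in the 6 comparisons, namely 5.34% and 7.02% in NP, 3.40% and 4.32% at dpc8 and 5.13% and 4.14% at dpc16. Cdo1 values of zone 2 lay above those of zone 1 and below those of zone 3 in NP without overlap (against 10.1% and 11.7% of all genes) and again below those of zone 3 at dpc8 (13.9%). In NP the Cth values of zone 2 lay above those of zone 3, and at dpc16 the Bhmt and Gnmt values of zone 1 lay above those of zone 2 (8.85%). Groups of zones 1 and 3 did not overlap for Cdo1 in NP (1 of 9 genes, against 12.7% of all genes), for Mat1a, Ahcy, Pemt and Cdo1 at dpc8 (4 of 9, all lower in zone 1, against 23.2%), and for Gnmt, Bhmt and Shmt1 at dpc16 (3 of 9, all higher in zone 1, against 14.7%). Library composition moved with the zones as well. Beside the connective tissue markers, the summed FPKM of 5 biliary markers was 40.2 to 158 in zone 1, where none was at 0 throughout a group. It was 0.0884 to 91.6 in zone 3, where 2 were at 0 throughout the dpc8 group and 2 throughout the dpc16 group. That of 5 hepatic stellate markers was lower in zone 1 than in zone 3 without overlap at each stage. The ranges were 76.4 to 114 and 145 to 195 in NP, and 58.3 to 66.9 and 139 to 142.5 at dpc8. At dpc16 they were 70.8 to 85.4 and 90.2 to 142. Kupffer cell markers were higher in zone 1 without overlap in NP and at dpc16, and overlapped at dpc8. The part of these markers in the differences was not tested.

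**Figure D2:**
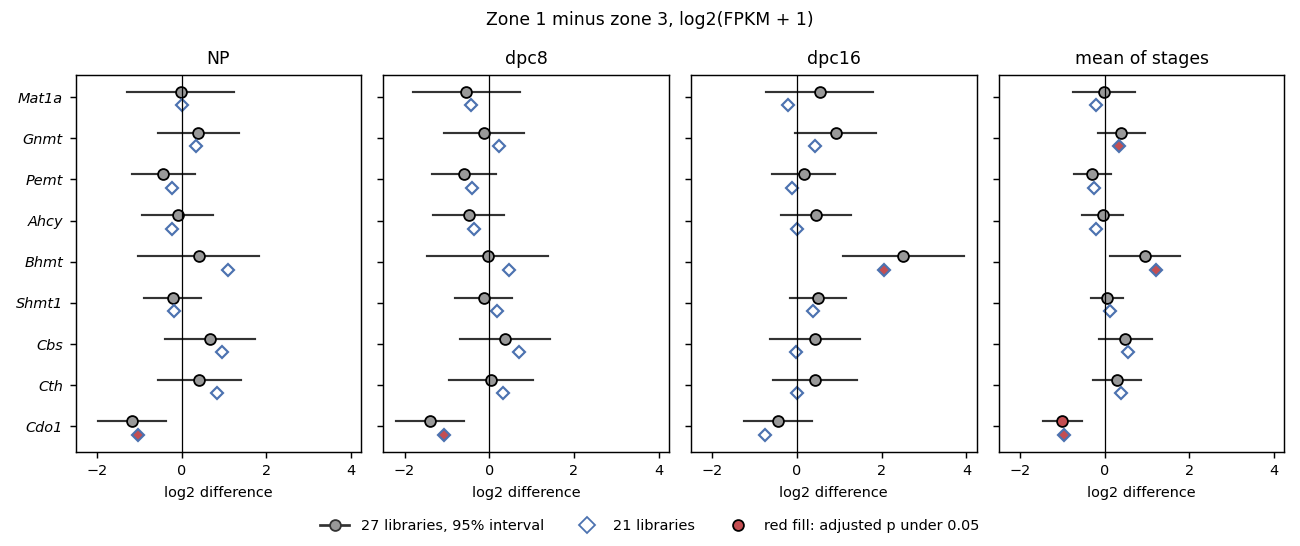
Log2 difference between zone 1 and zone 3 in NP, at dpc8, at dpc16 and averaged over the stages, for each of the 9 genes. Circles with 95% intervals are all 27 libraries, diamonds are the 21 libraries without Y-linked FPKM, and a red fill marks an adjusted p under 0.05 in limma. Cdo1 lies left of 0 in every panel, and Bhmt lies far right of 0 at dpc16.

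Between NP and dpc8, none of the 27 tests of the 9 genes in single zones passed in limma, against 0.0309%, 0.00772% and 0.0154% of all genes in zones 1, 2 and 3, and none had an unadjusted p under 0.05, against 3.13%, 5.06% and 2.74%. Averaged over zones none of 9 passed in limma, against 0.108% of all genes, and 2 had an unadjusted p under 0.05 (Cbs at -0.65 and Cdo1 at -0.48), against 6.11%. The groups overlapped for all 9 genes in zone 1 (6.52% of all genes did not overlap), and were apart for Cdo1 in zone 2, lower at dpc8 (10%), and for Cth in zone 3, higher at dpc8 (9.81%). From NP to dpc16, 1 of 27 single-zone tests passed, Cth in zone 2, against 1.37%, 2.66% and 1.32% of all genes in zones 1, 2 and 3. In the 21 libraries 8 of 27 passed, against 2.92%, 4.45% and 3.61% of all genes: Mat1a and Gnmt in all 3 zones, and Cth in zones 1 and 2. Averaged over zones 2 of 9 passed, Gnmt and Cth, against 11.8% of all genes, and in the 21 libraries Mat1a passed too, against 16.6%. From dpc8 to dpc16, Cth in zone 2 passed, against 2.01%, 1.51% and 1.37% of all genes in zones 1, 2 and 3, and averaged over zones 3 of 9 passed, Mat1a, Gnmt and Cth, against 11.1%. Without the 6 libraries 8 of 27 single-zone tests passed, against 4.38%, 3.91% and 3.87%, namely Mat1a and Cth in all 3 zones and Gnmt in zones 2 and 3, and 5 of 9 averaged tests, against 18.7%. Both comparisons use the same dpc16 libraries. The median log2 difference from NP of the 9 genes at dpc16 was -0.22, and that of all genes was -0.01. Without overlap between dpc16 and NP, Mat1a, Bhmt and Cdo1 were higher and Cth lower in zone 1 (against 17.4% of all genes), Gnmt and Cth were lower in zone 2 (17.4%), and Cth and Shmt1 were lower in zone 3 (16.7%). Between dpc16 and dpc8 this held in zone 1 for Mat1a, Bhmt, Ahcy and Cdo1, which were higher, and Cth, which was lower (19.9%), in zone 2 for Cth (13.8%), and in zone 3 for Gnmt, Cth, Pemt and Shmt1, all lower (23.3%). None of the 36 tests of a difference between zones in the change with stage passed in limma, against 0.00% to 0.0540% of all genes, and 2 had an unadjusted p under 0.05 (Bhmt for zone 1 minus zone 3 and Cdo1 for zone 1 minus zone 2, both at dpc16), against 2.36% of all genes for the dpc8 change and 3.16%, 4.29% and 2.47% for the dpc16 changes between zones 1 and 3, 1 and 2, and 2 and 3.

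**Figure D3:**
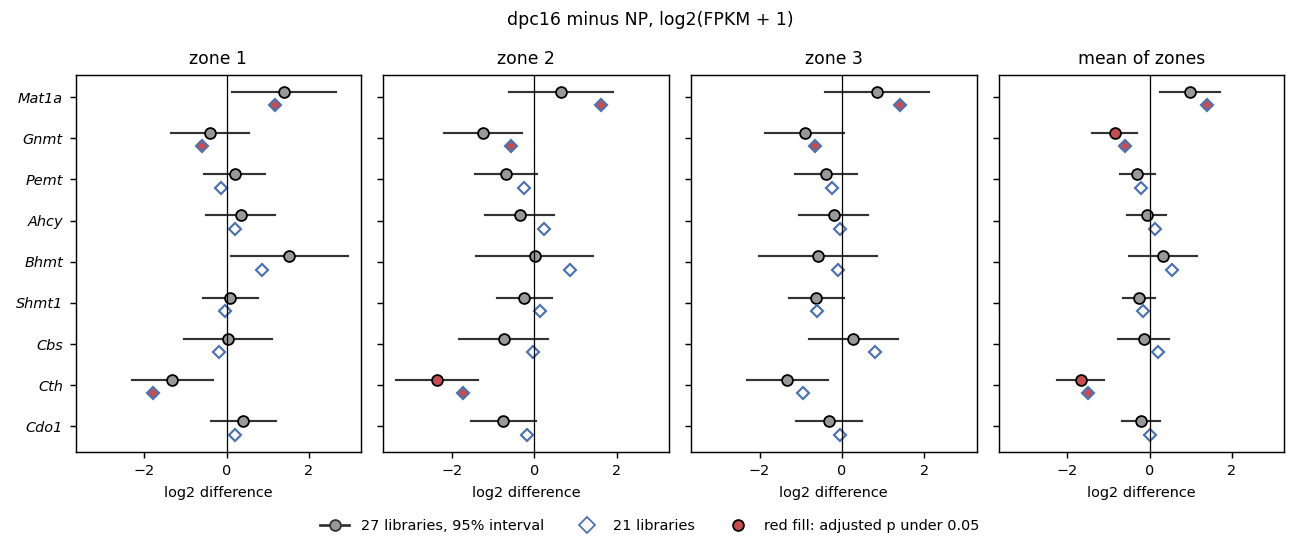
Log2 difference between dpc16 and NP in each zone and averaged over zones, for each of the 9 genes. Circles with 95% intervals are all 27 libraries, diamonds are the 21 libraries without Y-linked FPKM, and a red fill marks an adjusted p under 0.05 in limma. Cth lies left of 0 and Mat1a right of 0 in every panel.

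A plain ratio of the FPKM of 2 genes within a library is free of the scale of that library, and the ranges given here are plain ratios. The log2 ratios tested were of FPKM + 1 and so depend a little on scale for low genes. For 5 ratios, differences were tested by exact permutation of the zone labels within each stage or of the stage labels within each zone, two-sided, with 8000 arrangements and adjustment over 15 tests, of which 8 passed. The permutation of stage labels treats the zones as independent, so its p-values may be too small where libraries of different zones share an animal. The ratio of Cth to Cbs was 0.299 to 1.04 in NP, 0.516 to 1.24 at dpc8 and 0.106 to 0.234 at dpc16. No dpc16 library reached an NP or dpc8 library. The log2 ratio differed from NP by -1.52 at dpc16 (exact permutation, p = 0.00025, the smallest possible, adjusted p = 0.00125), by -1.69 in the 21 libraries, and by 0.64 at dpc8 (exact permutation, adjusted p = 0.0256), a call that was lost in the 21 libraries, at 0.47. The ratio of Cdo1 to Cth rose in the same direction across the lobule and in late pregnancy. It was 2.39 to 5.62 in zone 1, 4.33 to 7.72 in zone 2 and 10.04 to 12.9 in zone 3 of NP mice, and 9.64 to 17.3, 15.7 to 18.9 and 20.4 to 28.2 at dpc16. Zone 1 and zone 3 libraries did not overlap at any stage. The difference in log2 ratio was -1.31 for zone 1 minus zone 3 and 1.45 for dpc16 minus NP (exact permutation, adjusted p = 0.00125 for both), and it was -0.46 for dpc8 minus NP (exact permutation, adjusted p = 0.037), a call also lost in the 21 libraries, at -0.38.

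The ratio of Gnmt to Pemt, the enzymes that methylate glycine and phosphatidylethanolamine, fell from zone 1 to zone 3. It was 2.77 to 4.02, 1.82 to 2.91 and 1.55 to 2.25 in zones 1, 2 and 3 of NP mice, and 1.54 to 2.80, 1.201 to 2.14 and 0.963 to 1.65 at dpc16. The log2 ratio was 0.69 higher in zone 1 than in zone 3 (exact permutation, adjusted p = 0.00469) and differed by -0.55 between dpc16 and NP (exact permutation, adjusted p = 0.0128), with 0.58 and -0.40 in the 21 libraries. The ratio of Mat1a to Mat2a, which encodes the subunit used outside the adult liver and in growing cells, differed by -0.57 in log2 between dpc8 and NP (exact permutation, adjusted p = 0.0488), a call lost in 14 of the 27 analyses that each left out 1 library. At dpc16 it ranged from 6.03 to 106. The difference from NP of 0.47 did not pass (exact permutation, adjusted p = 0.411) and was 0.91 and passed in the 21 libraries. The ratio of Bhmt to Mtr, the folate-dependent enzyme for the same step, was 394 to 1000 in zone 1 at dpc16 and 51.5 to 401 in zone 1 of NP mice, and, with Mtr at 1.65 to 4.96 FPKM, the pseudocount moved the log2 difference between dpc16 and NP from 0.85 to 1.0105 when 0.1 replaced 1. None of its 3 tests passed (exact permutation, adjusted p = 0.199 to 0.411), although the dpc16 difference from NP passed in the 21 libraries, at 1.13.

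**Figure D4:**
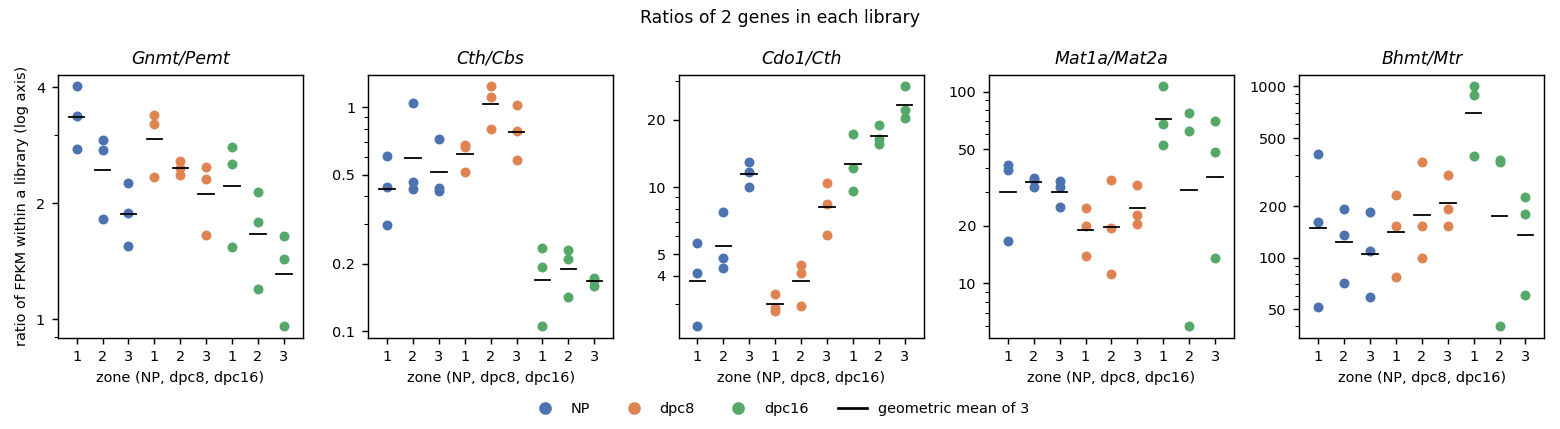
Ratio of the FPKM of 2 genes within each library (log axes), by stage and zone, with the geometric mean of the 3 libraries as a line. The ratio of Cth to Cbs dropped to 0.106 to 0.234 in all dpc16 libraries, and the ratio of Cdo1 to Cth rose from zone 1 to zone 3 at each stage.

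The neighbouring pathways were described through 74 further genes in 5 lists, all of which passed the filter. Between zones 1 and 3, averaged over stages, 6 were higher and 4 lower in zone 1, against 2.70% and 2.89% of all genes. The 6 were Gldc and Ftcd, which break down glycine and the formimino group of histidine (3.27 and 1.86 in log2), Got1, a cytosolic aspartate aminotransferase (1.47), Sqor, which oxidises sulfide in mitochondria (0.92), the histamine methyltransferase Hnmt (0.74) and the glutathione synthetase Gss (0.49). The lower genes included Csad, the enzyme after Cdo1 on the way to taurine (-2.60), the thiosulfate sulfurtransferase Tst (-1.03) and Gclm, a subunit of the enzyme for the first step of glutathione synthesis (-0.55). Csad was 15.4 to 25.6 FPKM in zone 1 and 80.9 to 222 FPKM in zone 3 of NP mice, and Gldc was 51.4 to 144 and 1.60 to 18.4 FPKM. In both genes the zones did not overlap, and their orders were opposite. All 10 also passed in the 21 libraries (limma, adjusted p up to 0.0162), where 11 of the 74 were higher and 5 lower, against 4.25% and 3.93%.

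No gene of the 74 passed between NP and dpc8 averaged over zones in limma, and 4 had an unadjusted p under 0.05, a share below the 6.11% of all genes. Between NP and dpc16, 1 was higher and 18 were lower, against 5.65% and 6.15% of all genes. In the 21 libraries 4 were higher and 17 lower, against 8.54% and 8.05%, and the 4, named after their values were seen, were Gldc (1.22), As3mt (0.95), Mthfd1l (0.59) and Gss (0.35). With all libraries the median log2 difference of the 74 was -0.12. In the list of cysteine, taurine, sulfide and glutathione genes, 7 of 13 were lower and none was higher, with a median of -0.64, and in the 21 libraries 6 were lower and 1, Gss, was higher. They included Ethe1, the mitochondrial sulfur dioxygenase (-1.74 ± 0.39), Tst (-1.11 ± 0.22), which acts in the same handling of sulfide, and Baat (-0.996 ± 0.23), which joins bile acids to taurine or glycine. Ethe1 was 10.8 to 80.7 FPKM in NP and 5.86 to 12.4 FPKM at dpc16, so that its NP libraries varied widely among themselves. Of the methyltransferases and methionine cycle genes 3 of 14 were lower, among them Inmt, an indolethylamine methyltransferase (-2.26 ± 0.39). Of the folate genes 4 of 20 were lower, with Aldh1l1, which oxidises formyl-folate, at -0.99 ± 0.22, and of the choline, betaine and glycine genes 3 of 16, with Pipox, which oxidises pipecolate and sarcosine, at -1.41 ± 0.20. Of the polyamine and methionine salvage genes Paox, a polyamine oxidase, was lower (-1.97 ± 0.25) and Odc1, the enzyme of the first step of polyamine synthesis, was higher (0.61 ± 0.20). Odc1 was at 0.46 in the 21 libraries and did not pass (limma, adjusted p = 0.081), and of the 18 lower genes Got1 did not (-0.74; limma, adjusted p = 0.0878). From dpc8 to dpc16 15 of the 74 were lower and none higher with all libraries, against 5.69% and 5.37% of all genes, and 18 were lower and 4 higher in the 21 libraries, against 9.21% and 9.47%. The 4 were As3mt (0.90), Mthfd1l (0.82), Srm (0.77) and Gss (0.37), again named after their values were seen.

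**Figure D5:**
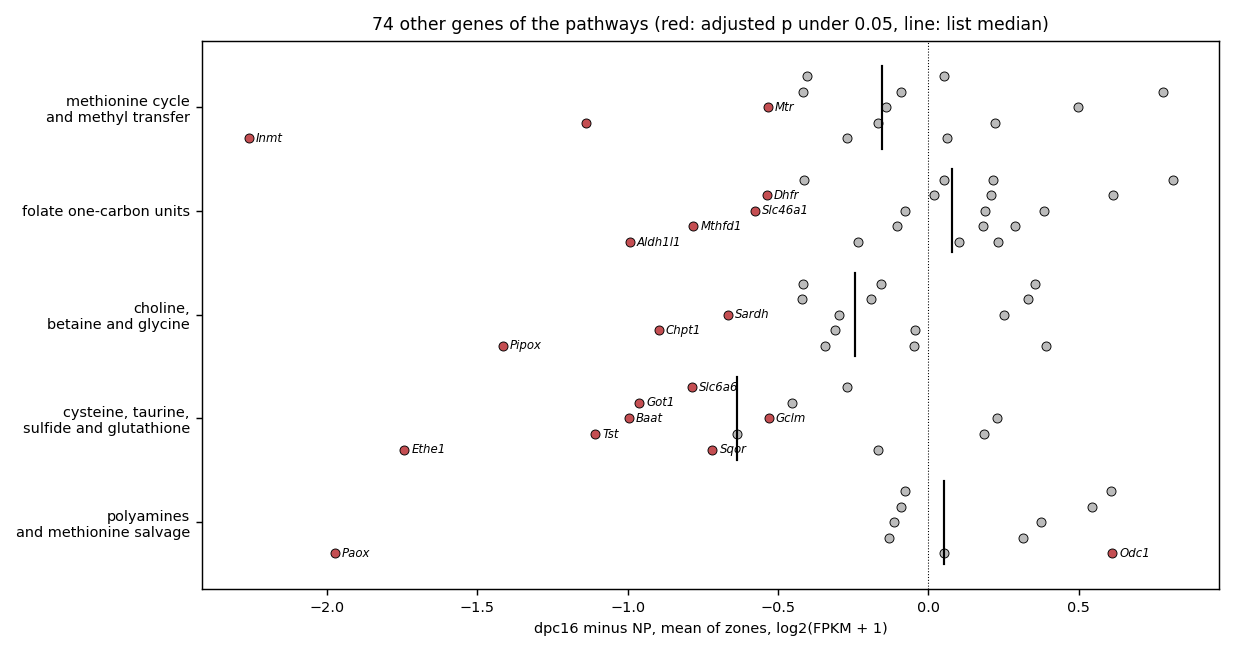
Log2 difference between dpc16 and NP, averaged over zones, of 74 other genes in 5 lists, with the median of each list as a line. Red points had an adjusted p under 0.05 in limma, and all but 1 of them are named. Of the 13 cysteine, taurine, sulfide and glutathione genes 7 were lower, and Odc1 was the gene of the 74 that was higher with all 27 libraries.

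Patterns over the 9 group means were compared with those of 5060 other genes whose group means spanned at least 1 in log2 by Pearson's r, as a description of means that share libraries and depth. Mat1a was most like Vnn3, Trf and Elovl2 (r = 0.985, 0.982 and 0.978), Gnmt like Maob, Lsr and Nod1 (0.989, 0.976 and 0.973), Cth like Slc17a2, Parp14 and Cyp2b9 (0.99, 0.988 and 0.977) and Cdo1 like Cpox, Prkd3 and Fgf1 (0.979, 0.969 and 0.955). Bhmt was most like Gm5096 (0.968), with which it shares sequence. Among the 9 genes, Gnmt and Cth were the most alike (0.923) and Mat1a and Cth the least (-0.805).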

How the data were processed

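Libraries of microdissected lobular zones (9 groups of stage and zone, 3 libraries each) were described by the labels as made from total RNA with ribosomal RNA depletion. The authors trimmed reads with cutadapt, aligned them to mm10 with HISAT2 2.1.0, kept uniquely mapped single-end reads, and computed FPKM with Cuffdiff (Cufflinks 2.2.1) over the protein-coding part of a GENCODE annotation, and these FPKM values were deposited. No read counts were used. Gene annotation was GENCODE vM21. Depth was estimated from 2201 single-transcript genes, in which 88.4% to 97.8% of low values lay within 0.1 read of a whole step. This estimate limits precision by counting only, and no interval was computed from it.

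Linear models were fitted to log2(FPKM + 1) in R 4.3.3 (limma 3.58.1), with 1 mean per group, an intensity trend and robust settings, over the 12952 genes in which 3 or more libraries reached an FPKM of 1. Fold changes on this scale understate those of low genes. P-values are two-sided and adjusted by Benjamini-Hochberg within each comparison, with a threshold of 0.05. The scripts were tested on simulated data. Libraries with Y-linked FPKM were those with a sum over 5. Replicates correlated at 0.789 to 0.976, and no pair was identical.

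Alternatives were another pseudocount (0.1), no filter, median-of-ratios scaling, quantile normalization, array weights, a connective tissue covariate, only the groups compared, the replicate number as a block or random term, and leaving out each library. Same-numbered libraries of different zones correlated over 0.1 in 9 of 9 pairs at dpc16 (0.263 to 0.863, median 0.358), 4 of 9 in NP and 5 of 9 at dpc8. Differently numbered dpc16 libraries had a median of -0.26. However, replicates 1 and 2 of zones 2 and 3 correlated at 0.561 and 0.593, against 0.632 and 0.668 for the same numbers. Replicate 3 held Y-linked FPKM in both of these zones. Whether the number pairs zones is therefore uncertain at every stage. The labels do not say what it marks.

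The members, lists and tests were chosen with earlier results of these data known. Named beyond the 9 members are, of the 74 listed genes, up to 8 per direction in an averaged comparison by size of change among those past the threshold, and the 3 most alike genes of a member. The values of 1 listed gene are not reported here.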

Additional observations from a re-analysis of the deposited data

How the results depend on the processing

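The number of calls depended on how the 6 libraries with Y-linked FPKM were treated. Without them the members called numbered 3 instead of 0 for zones 1 and 3 at each stage, 3 instead of 1 for the average over stages, 8 instead of 1 for dpc16 against NP, 8 instead of 1 for dpc16 against dpc8, and 8 instead of 5 for the stage changes averaged over zones, and the other pathway genes between zones numbered 16 instead of 10. Array weights gave 3, 2, 5, 8 and 8 for the same 5 counts, and the connective tissue covariate gave 3, 4, 5 and 5 for the first 4 and 52 instead of 34 for the other pathway genes between stages. Quantile normalization gave 1, 2 and 2 for zones at each stage, dpc16 against NP and dpc16 against dpc8. Fitting only the groups compared gave 1 for zones at each stage, 0 for dpc16 against NP and 2 for the averaged stage changes, and no filter gave 3 for the latter. The replicate block gave 3 for zones at each stage and 2 for their average, and as a random term 3 for the averaged stage changes of the members and 24 instead of 34 for those of the other pathway genes. No other count moved by over 1.5 times under the block or the random term. The cause of these moves was not tested. Under another pseudocount and median-of-ratios scaling all counts stayed within 1.5 times.

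Leaving out 1 library gave 0 to 3 members for zones 1 and 3 at each stage, 0 to 3 for dpc16 against dpc8, 3 to 5 for averaged stage changes, 7 to 11 and 26 to 39 other pathway genes for zones and stages, and 5 to 10 ratios. It gave 1 throughout for the average over stages and for dpc16 against NP, and 0 throughout for neighbouring zones, dpc8 against NP and the differences between zones in the change with stage. Direction reversed for 3 results that had not passed with all libraries. The Cdo1 difference between dpc16 and dpc8 averaged over zones, 0.26 with all libraries and past the threshold in the 21 libraries, was -0.0078 under quantile normalization. The Gnmt to Pemt log2 ratio for dpc8 against NP ranged from -0.0690 to 0.0604 over fits without 1 library, and the Mat1a to Mat2a ratio between zones 1 and 3 from -0.028 to 0.37. Of the single results, 678 of 790 under the other settings kept their direction and side of the threshold. Depth limits little here, since all 9 genes were far above 1 read.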
